A study of Drosophila melanogaster with 2 samples.

Results

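The genes of the mitochondrial ribosome were examined for peaks of CG15269, a fly protein that the RefSeq annotation lists as uncharacterized. The members were all protein-coding genes whose Ensembl symbol begins with mRpL or mRpS, which gave 73 of the 13945 protein-coding genes on the 6 chromosome arms, 26 named for the small subunit and 47 for the large subunit. The series holds 1 group of 2 biological replicates, numbered 2 and 3: whole Drosophila melanogaster embryos of mixed sex, 6 to 18 h old, from a transgenic line that carries CG15269 with GFP fused to its C-terminus. An anti-GFP antibody was used for the precipitation according to the sample descriptions, although the labels also give CG15269 as the antibody. With no second genotype, stage or treatment, the design holds no contrast between conditions, so values are given beside those of all protein-coding genes and without a test. The peaks are those of a tagged protein in whole embryos, so cell types cannot be told apart, and an antibody signal at a gene does not show that the gene is regulated.

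Mitochondrial ribosomes translate the few proteins encoded by the mitochondrial genome, all of them in flies subunits of the respiratory chain and the ATP synthase. Every protein of the mitochondrial ribosome is itself encoded in the nucleus, made in the cytoplasm and imported. Some mitochondrial ribosomal proteins have a counterpart in bacterial ribosomes, and others are found only in mitochondria.

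A gene was called bound when a summit of the IDR list lay within 500 bp of any of its transcription start sites (TSSs). This list holds 7029 peaks that the authors thresholded by IDR, a test of reproducibility between the replicates. Its peaks were the top 7029 of the joint peak calls, so a peak in it need not have been called in each replicate. At mRpS25 and mRpL51, both bound, the replicate 2 list held no summit within 500 bp. Of the 73 genes, 24 were bound, or 32.9% (exact Clopper-Pearson 95% interval 22.3 to 44.9%), and the share over all protein-coding genes was 20.6%. Under a stricter count, in which a summit belongs only to the gene with the nearest TSS, 12 members were bound. That is 16.4% of the members, against 16.4% of all protein-coding genes, so by this count the members were level with the background. The nearest-gene share depended on the window and the list. Within 200 bp it was 16.4% of members, against 11.8% of all genes, and in the list called on both replicates together it was 23.3%, against 31.3%. When an IDR peak had to cover a TSS, it was 8.22% of members (6 genes), against 10.2% of all genes. With every gene counted whose TSS was covered, 13 members were bound (17.8%), against 11.9% of all protein-coding genes. The intervals cover counting error only.

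The small subunit genes were bound more often than the large subunit genes in this count. A summit lay at 13 of 26 mRpS genes (50%, interval 29.9 to 70.1%) and at 11 of 47 mRpL genes (23.4%, interval 12.3 to 38.0%). As nearest gene, 8 mRpS genes (30.8%) and 4 mRpL genes (8.51%) were bound. The intervals of the subunits overlap and the difference was not tested. When an IDR peak had to cover a TSS, 6 of 26 mRpS and 7 of 47 mRpL genes were bound. The share of all protein-coding genes under that rule was 11.9%. In human ribosome structures the proteins named MRPS30 and MRPS18A lie in the large subunit. Neither mRpS30 nor mRpS18A was bound in flies. Among genes whose product has a bacterial counterpart, in the naming used for mammalian mitochondrial ribosomes, 16 of 44 were bound (36.4%). Among genes of mitochondria-specific proteins, 8 of 29 were bound (27.6%). Within the small subunit the share was 50% for both kinds, at 7 of 14 and 6 of 12 genes. Within the large subunit it was 30% for genes with a bacterial counterpart (9 of 30) and 11.8% for the mitochondria-specific ones (2 of 17, mRpL41 and mRpL51).

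Bound members were found on all 5 large arms. They were 7 of the 12 members on 2L, 4 of 12 on 2R, 7 of 17 on 3L, 5 of 21 on 3R and 1 of 11 on X. The only bound member on X was mRpS25. No summit was shared by a pair of members. The intervals by arm are wide, from 27.7 to 84.8% on 2L and from 0.230 to 41.3% on X, and the share of all protein-coding genes was 20.3% on 2L, 19.0% on 2R, 22.7% on 3L, 20.3% on 3R and 21.5% on X.

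**Figure D1:**
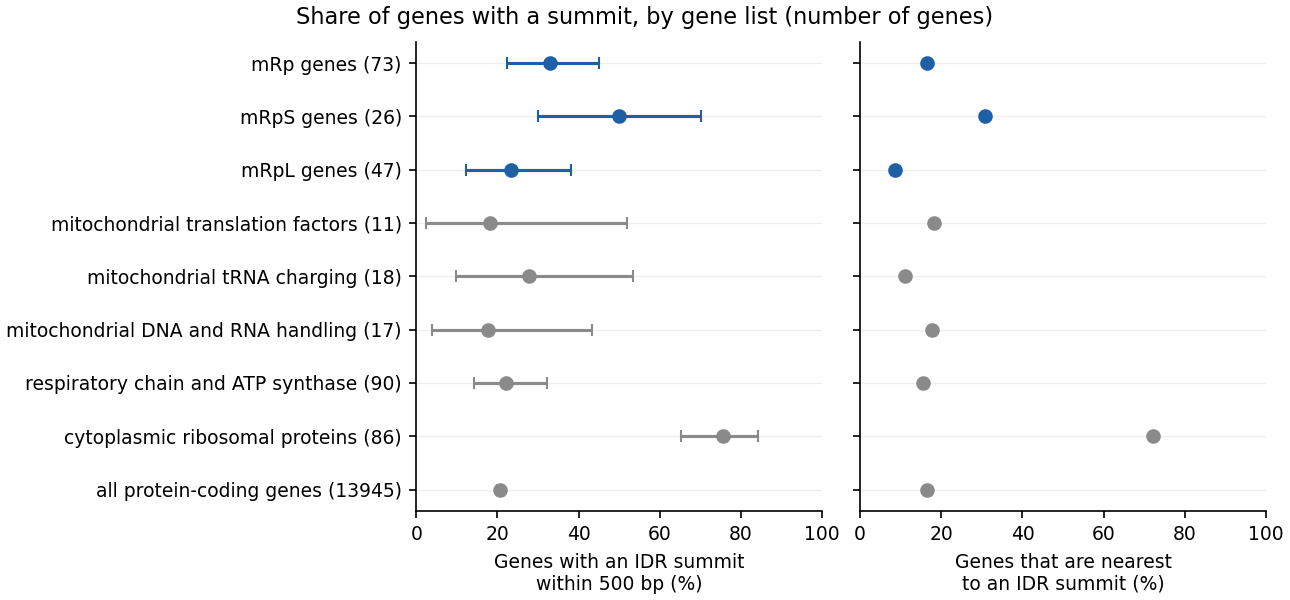
The left panel plots the percent of genes in each list that were bound, with exact 95% intervals, and the right panel the percent that are the nearest gene of a summit, without intervals. The 73 mRp genes lie at 32.9% on the left, against 20.6% of all protein-coding genes, and both lie at 16.4% on the right.

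The signal is the value that the authors deposited for each peak. The sources used here do not give its scale, so it is used to rank peaks within a list. The strongest member peak belonged to mRpL41, which codes for a large subunit protein with no bacterial counterpart. Its summit lay at chr2R:15217761 (dm6), 144 bp upstream of the TSS, within a peak at chr2R:15217560-15218006. The signal was 6968 in the IDR list, the rank was 5 of 7029, and mRpL41 ranked 5 in both the replicate 2 list and the replicate 3 list, with signals of 3504 and 3469. No other protein-coding gene started within 500 bp of this summit. The TSS of the noncoding gene lncRNA:CR44463 did, and CG8079 started head to head with mRpL41 at a distance of 762 bp.

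The next members were 2 small subunit genes and 1 large subunit gene. mRpS10 codes for a protein whose bacterial counterpart lies in the head of the small subunit. The mRpS10 summit had a signal of 5624 and rank 8, and signals of 2788 in replicate 2 and 2853 in replicate 3. This summit lay 129 bp upstream of mRpS10 and 128 bp upstream of Art3, an arginine methyltransferase gene, so that the opposed start sites were almost equally far. mRpS23, which codes for a mitochondria-specific protein, had a signal of 4806 and rank 17, and it ranked 13 in replicate 2 and 27 in replicate 3. Its summit lay 384 bp upstream of mRpS23 but 108 bp upstream of CenG1A, a gene for a GTPase-activating protein. mRpL23, whose bacterial counterpart sits at the exit of the peptide tunnel, had a signal of 3017 and rank 58. Its summit was the only one of the 24 that lay downstream of the member's TSS, by 64 bp, in the 5' UTR. These 4 genes were the members among the 100 strongest IDR peaks. They made up 16.7% of bound members, against 3.09% of all bound protein-coding genes.

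Sequence at 6 summits is shown because the summits lay in stretches rich in A and T. Bound summits poorer in A and T, such as those of mRpS16 (47.1% A+T in 51 bp) and mRpS24 (56.9%), are not shown. The runs at mRpL41 and mRpL23 are not shown, and that at mRpL23 overlaps an exon. Each run below holds 121 bases of the plus or minus strand of the dm6 genome (RefSeq copy of release 6) centred on the summit, written 5′ to 3′ in the direction of the mRp gene. Capitals mark runs of 8 or more A or T bases. The runs lie at chr3R:15229476-15229596 (plus strand) for mRpS10, chr2L:13835396-13835516 (minus) for mRpS23, chr3L:13018079-13018199 (minus) for mRpL20, chr2L:4945436-4945556 (minus) for mRpL24, chr2L:4850499-4850619 (minus) for mRpS2 and chr3R:8673922-8674042 (plus) for mRpL19. None overlaps an annotated exon. mRpL19 is included because it was the only bound member without a head-to-head neighbour.
mRpS10: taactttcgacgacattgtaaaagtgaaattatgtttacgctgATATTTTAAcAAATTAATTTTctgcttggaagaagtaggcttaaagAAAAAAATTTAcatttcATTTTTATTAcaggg
mRpS23: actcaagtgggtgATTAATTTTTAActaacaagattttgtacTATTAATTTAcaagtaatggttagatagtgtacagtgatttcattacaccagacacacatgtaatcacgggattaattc
mRpL20: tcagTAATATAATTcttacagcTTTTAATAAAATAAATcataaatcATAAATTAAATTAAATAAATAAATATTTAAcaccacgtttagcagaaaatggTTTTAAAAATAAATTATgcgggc
mRpL24: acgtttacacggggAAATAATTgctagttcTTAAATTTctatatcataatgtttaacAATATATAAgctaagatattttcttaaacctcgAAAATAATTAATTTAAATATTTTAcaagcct
mRpS2: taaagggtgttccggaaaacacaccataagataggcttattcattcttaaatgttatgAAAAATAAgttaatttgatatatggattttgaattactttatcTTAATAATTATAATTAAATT
mRpL19: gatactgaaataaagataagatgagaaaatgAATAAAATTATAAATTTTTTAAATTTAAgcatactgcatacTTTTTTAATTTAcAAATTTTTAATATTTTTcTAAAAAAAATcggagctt
The longest run of A and T was 30 bases at mRpL20, 28 at mRpL19, 24 at mRpL24, 20 at mRpS2, 12 at mRpS23 and 11 at mRpS10. A+T made up 80.2% of the bases at mRpL20 and 69.4% at mRpS23, so the order of the signals was not the order of A+T content.

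For contrast, the same length of sequence is shown at the midpoint between the head-to-head start sites of 2 members that had no summit in any of the 4 lists. They were chosen after their A+T content was seen, as an A+T-rich and an A+T-poorer example with 121 bases free of exons at the midpoint. The runs lie at chr3L:14999748-14999868 (minus strand) between mRpL39 and Prosbeta2, and at chrX:15760930-15761050 (plus strand) between mRpL3 and Graf.
mRpL39: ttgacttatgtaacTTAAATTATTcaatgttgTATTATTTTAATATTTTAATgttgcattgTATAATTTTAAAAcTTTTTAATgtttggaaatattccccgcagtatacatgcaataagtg
mRpL3: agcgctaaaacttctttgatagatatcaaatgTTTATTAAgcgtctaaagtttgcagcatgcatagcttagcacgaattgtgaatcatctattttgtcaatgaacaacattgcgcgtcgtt
The mRpL39 run held 77.7% A+T with a longest stretch of 20 A or T bases, the same values as at mRpS2, although no peak was called there. The mRpL3 run held 64.5%.

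Next in the order were 5 genes for small and large subunit proteins with signals between 1828 and 683. mRpL20, whose bacterial counterpart acts early in assembly of the large subunit, had a signal of 1828, with 978 in replicate 2 and 850 in replicate 3. It shared the summit with Icmt, an isoprenylcysteine carboxyl methyltransferase gene. mRpL24 had a signal of 1800, with 795 in replicate 2 and 1015 in replicate 3, and shared its summit with betaggt-I, which codes for a subunit of geranylgeranyl transferase. These 2 partners both code for enzymes of the modification of proteins with lipid chains. mRpS2 had a signal of 1529, with 728 in replicate 2 and 807 in replicate 3, and its partner was Mon1, which acts in the maturation of endosomes. mRpS6 had a signal of 911, with 441 in replicate 2 and 471 in replicate 3, and shared its summit with Cip4, which codes for a membrane-bending adaptor protein. mRpS7, whose bacterial counterpart contacts messenger RNA and transfer RNA, had a signal of 683. Its rank differed between the replicates, at 1562 in replicate 2 and 943 in replicate 3, and its partner was Cdk1, the kinase that drives entry into mitosis.

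The other 15 bound members had signals under 500. mRpS26 had 466 and shared its summit with CG13698, and mRpL34 had 446 with Dg, the dystroglycan gene. mRpS24, the counterpart of bacterial S3, had 416 with Apc2, a gene of the Wnt pathway. mRpS22 had 401 with CG5003, and mRpS18B had 385 with Kua. mRpL19 had 364 and no partner. The partners of the next genes included Droj2, a DnaJ chaperone gene at mRpS21 (273), and Tudor-SN, a nuclease gene at mRpL17 (250). mRpL27 (284) shared its summit with CG15435 and mRpS31 (272) with hzg. mRpL21 had 187 with rept, which codes for the ATPase reptin, mRpS16 had 187 with cg, the zinc finger gene combgap, and mRpS25 had 187 with nmdyn-D6, a nucleoside diphosphate kinase gene. mRpL18 (171) lay beside Taz, which codes for the cardiolipin-remodelling enzyme tafazzin. mRpL51, at 159, lay just inside the threshold of the IDR list, whose lowest signal was 154, and shared its summit with Uba4. mRpS21 was the only member with 2 IDR summits within reach, the second with a signal of 166 at position -346 bp.

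The median signal of the bound members was 409, against 408 for all bound protein-coding genes, but their spread was wider. The lower and upper quartiles were 266 and 1597 for the members, against 239 and 760 for all bound genes. In the 500 strongest peaks lay 7 of the 24 bound members (29.2%), against 402 of the 2876 bound genes (14.0%). All 7 had signals above 1000, and 2 more lay between 500 and 1000. Of the 7, only mRpL41 and mRpL23 were the gene nearest to their summit. At mRpS10, mRpS23, mRpL20, mRpL24 and mRpS2 the partner was the nearer gene.

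**Figure D2:**
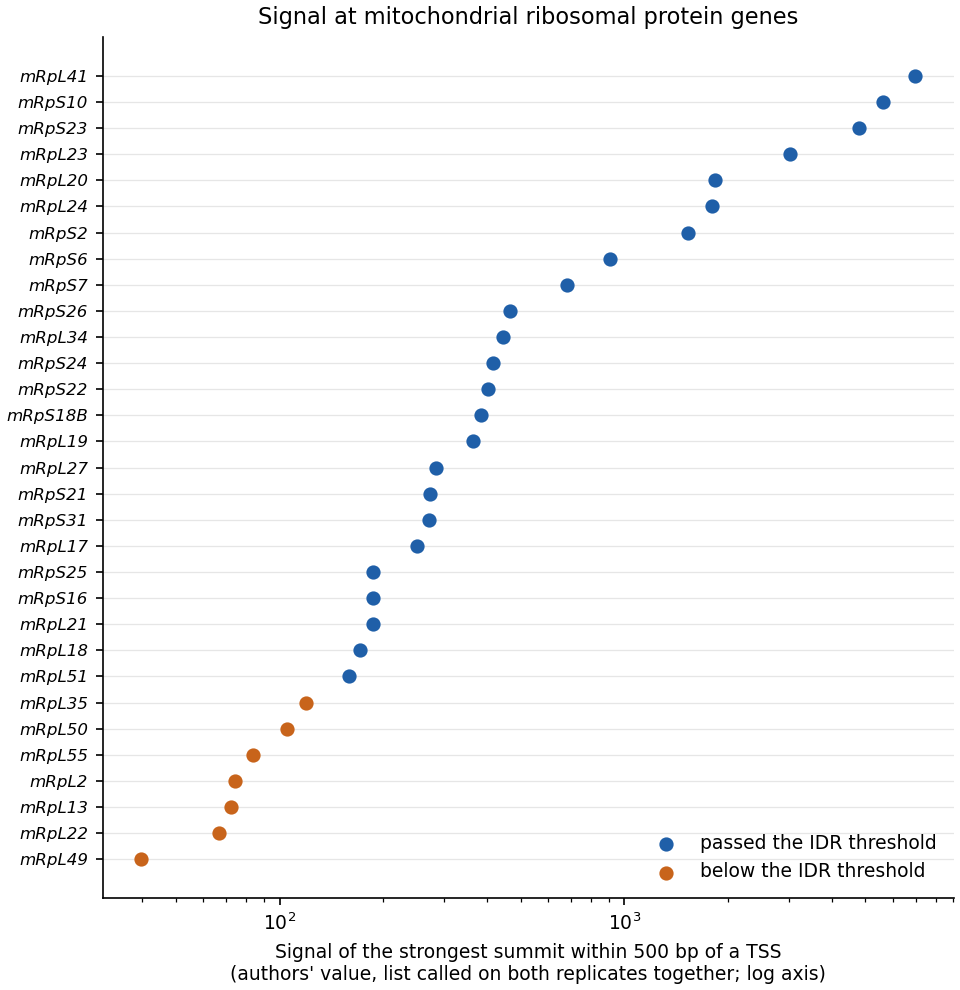
Each point is the signal (log axis) of the strongest summit within 500 bp of a TSS of 1 member, in the list called on both replicates together, for the 31 members with such a summit. The 24 blue members passed the IDR threshold and run from 6968 at mRpL41 to 159 at mRpL51, and the 7 orange members below it run from 119 at mRpL35 to 39.7.

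Below the IDR threshold, the list called on both replicates together added 7 members, all of them large subunit genes. This list of 30000 peaks reached 31 members (42.5%), against 36.3% of all protein-coding genes. mRpL35, the strongest of these 7, had a signal of 119 at rank 9291, well below the end of the IDR list, and shared its summit with Mitofilin, a gene of the inner membrane organizing system of mitochondria. mRpL50 had 105 beside mei-P22, mRpL55 had 83.6 beside ATPsynD, mRpL2 had 74.0 beside FoxK, and mRpL13 had 72.5 beside CG10602. ATPsynD codes for a subunit of the ATP synthase. The bacterial counterpart of mRpL2 lies by the peptidyl transferase centre. The nearest IDR summit to mRpL55 was 730 bp away, which put this gene just outside the 500 bp window.

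Both replicate lists, of 30000 peaks each, held a summit at 26 members (35.6%), against 32.1% of all protein-coding genes. Of the 24 bound members, 22 were in the replicate 2 list and 24 in the replicate 3 list. The 2 missing from replicate 2 were mRpS25, with a signal of 113 in replicate 3, and mRpL51, with 90.8. Over the 22 bound members in both lists, the Spearman correlation of the signals was 0.923, against 0.853 over 2740 bound protein-coding genes. These values cover only genes with an IDR summit and a summit in both replicate lists. They do not measure agreement over all genes. The summits of a member in the 2 replicate lists lay a median of 9.5 bp apart, against 23 bp for all bound genes. Ranks differed by a median factor of 1.44 for the members, against 1.38 for all bound genes. The widest gap among bound members was at mRpL21, which ranked 4293 in replicate 3 and 11262 in replicate 2. No read totals were among the files, so the depth of each replicate is unknown.

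**Figure D3:**
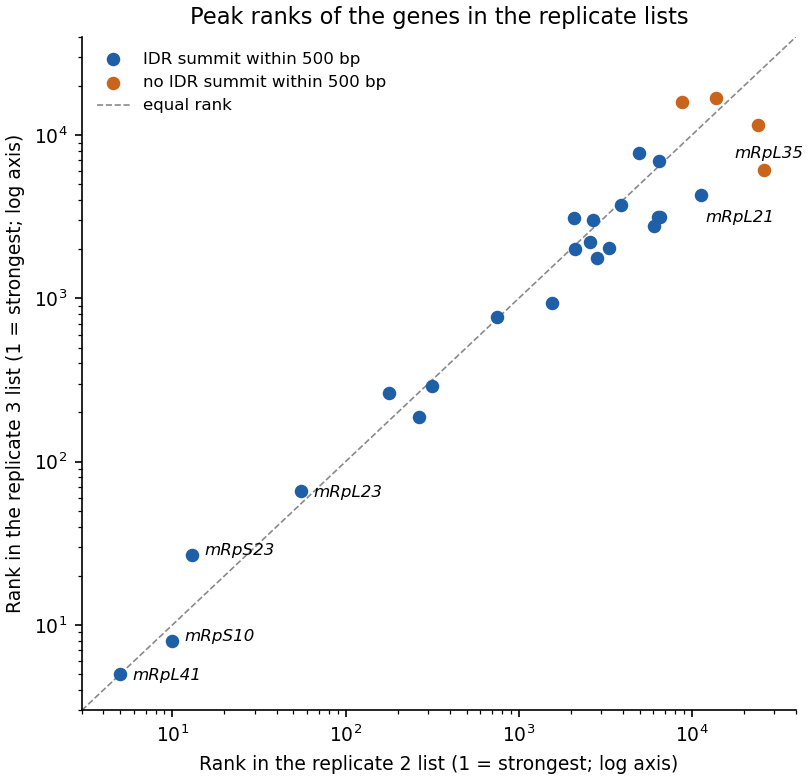
Each point is 1 of the 26 members with a summit in both replicate lists, placed by its rank in the replicate 2 list and in the replicate 3 list (both log axes, 1 is strongest). mRpL41, mRpS10 and mRpL23 lie close to the dashed line of equal rank, mRpS23 ranks higher in replicate 2, and mRpL35 and mRpL21 lie farther below it.

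A summit in 1 replicate list alone, with none in the list called on both together, was found at 5 members. They were mRpL47 and mRpL53 in replicate 2 and mRpL11, mRpL32 and mRpS5 in replicate 3. mRpL11, named here after its value was seen, ranked 3210 in replicate 3 with a signal of 167, within the range of the bound members, but was absent from replicate 2. The remaining 37 members had no summit within 500 bp in any list. Among them were mRpL12, which codes for the stalk protein that engages translation factors, mRpL3 and mRpL4, which belong to the conserved core, and mRpS29, whose human counterpart is DAP3. The median distance from an unbound member to the nearest IDR summit was 7014 bp, and 30 members had none within 5000 bp. No all-gene values are given for these distances or for the 37 members. They therefore do not show whether members lie farther from summits than other genes.

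Most bound members shared their summit with an opposed gene. At 22 of 24 (91.7%) another protein-coding gene had a TSS within 500 bp of the same summit, against 1361 of 2876 bound protein-coding genes (47.3%). Each of the 22 had exactly 1 such partner, and each partner lay on the opposite strand. The partner was the nearer gene in 12 cases and the member in 10. The summit lay between the 2 start sites in 18 cases. At mRpL18, mRpL27 and mRpL51 it lay beyond the partner's TSS, and at mRpL23 beyond the member's own, in each case in a 5' UTR. Within 200 bp, 10 of 19 bound members shared a summit (52.6%), against 35.2% of bound genes. Per the labels chromatin was sheared to fragments of 200 to 800 bp, about the length of the gaps between these start sites, so the peaks do not show which gene of a pair they belong to. The median summit position was -144 bp from the member's TSS (negative is upstream), against -148 bp for all bound genes.

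**Figure D4:**
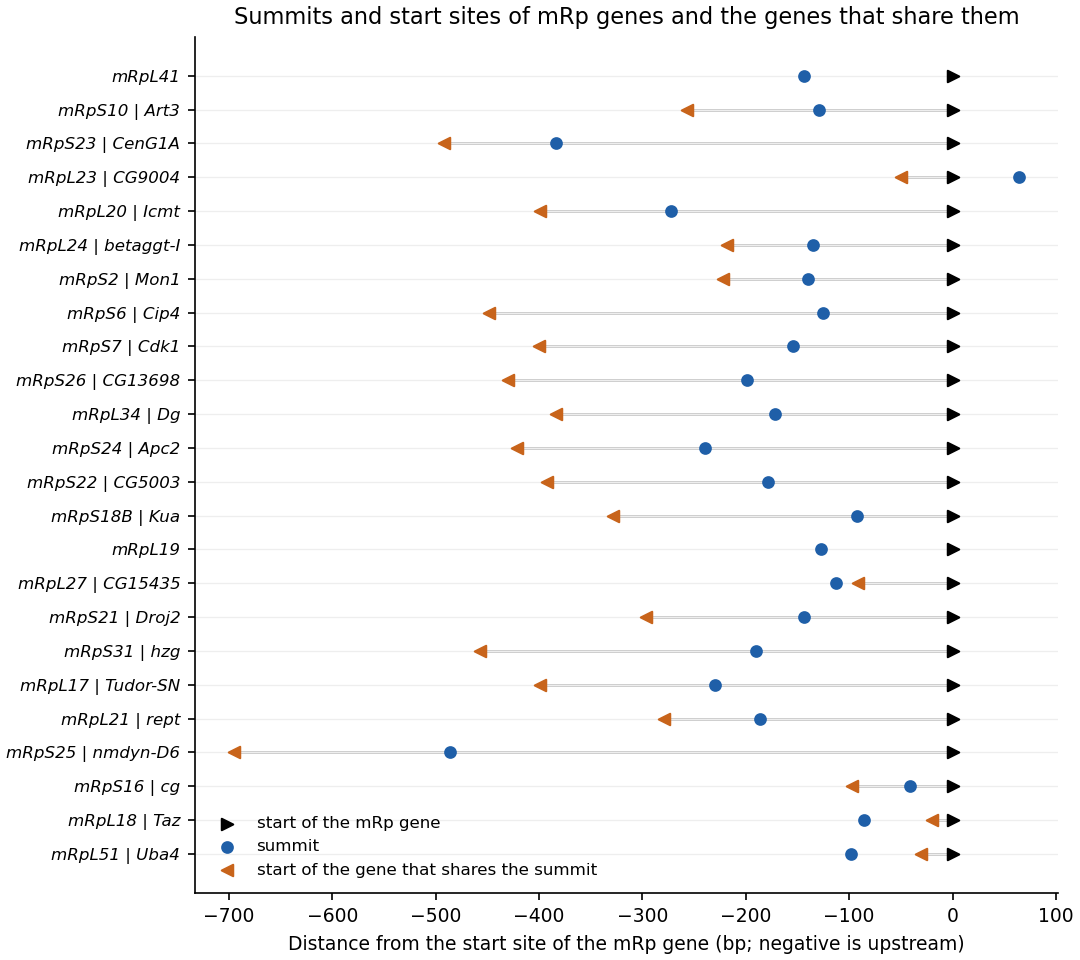
Each line is 1 of the 24 bound members, ordered by IDR signal and followed by the gene that shares its summit. Positions are in bp from the TSS of the mRp gene, with negative values upstream. Circles mark summits, and left-pointing triangles mark the TSS of the partner. In 18 of the 22 shared cases the circle lies between the triangles.

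Bound or not, most members had a head-to-head neighbour, defined as a protein-coding gene on the opposite strand that starts within 1000 bp upstream. This arrangement was present at 58 of 73 members (79.5%), against 36.2% of all protein-coding genes, and it is a property of the annotation, not of the peaks. Among genes with such a neighbour, 39.7% of members were bound, against 31.4% of all genes. Among those without one, 1 of 15 members was bound (6.67%), against 14.5% of all genes. The sharing of summits, too, was common for all head-to-head genes. Among bound genes with such a neighbour, 22 of 23 members (95.7%) and 1300 of 1586 genes (82.0%) had a shared summit. The difference between members and all genes was thus smaller within the head-to-head class than over all genes.

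The distance between the opposed start sites also went with binding. Where it was at most 200 bp, 5 of 22 members were bound (22.7%), against 22.9% of all genes. For gaps over 200 and up to 400 bp, 11 of 19 members were bound (57.9%), against 40.5% of all genes. For wider gaps up to 1000 bp, 7 of 17 were bound (41.2%), against 29.3%. The median gap was 384 bp at bound members and 242 bp at members that were not bound. Over all protein-coding genes it was 313 bp at bound genes and 285 bp at genes that were not bound. Summits are assigned by distance to a TSS, so narrow and wide gaps do not offer the same length of sequence to the count.

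The A+T content in 51 bp at the strongest summit of each bound member averaged 72.6% ± 9.56 (SD, n = 24). At IDR summits near other protein-coding TSSs it averaged 66.1% ± 12.4 (SD, n = 2532). The difference of the means is smaller than either SD, and it was not tested. At 20 of the 24 the content lay above the mean of the other summits. The highest value was 86.3%, at mRpL20 and mRpL19, and the lowest was 47.1%, at mRpS16. At 500 bp to the left and right of the summits the mean was 50.4% and 49.5% for the members, against 55.3% and 55.5% for the other summits. At 1000 bp, over both sides, the mean was 56.0% for the members and 56.3% for the other summits.

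**Figure D5:**
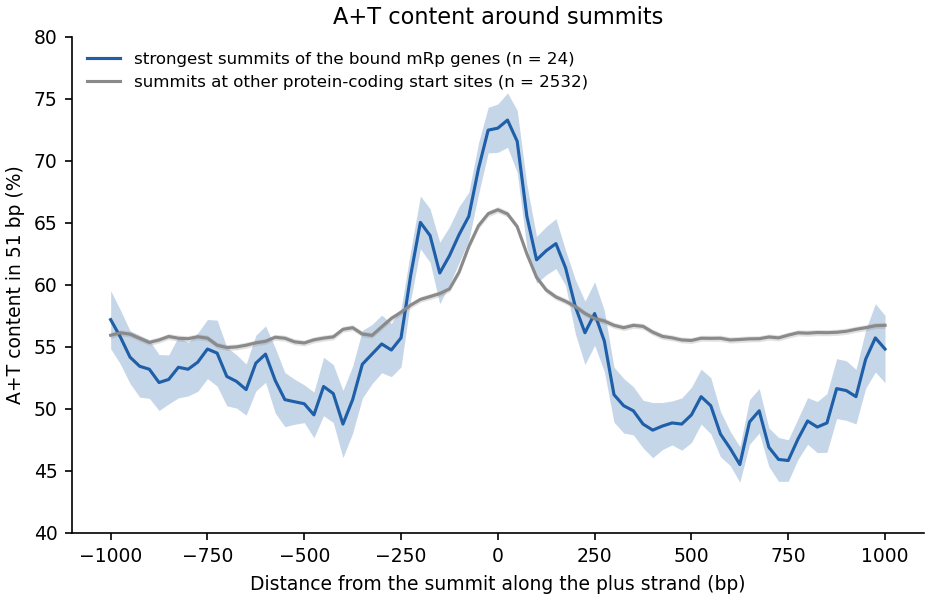
Lines give the mean A+T content in 51 bp windows around summits and bands the standard error over summits, by distance from the summit along the plus strand. The 24 member summits (blue) peak near 72.6%, against 66.1% for the 2532 summits at other protein-coding start sites (grey), and fall below them at 500 bp on either side.

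A+T content did not separate the bound members from the others. In the 250 bp upstream of the TSS it averaged 66.7% ± 6.36 (SD, n = 24) at bound members and 64.8% ± 7.65 (SD, n = 49) at members that were not bound. For all protein-coding genes the means were 62.7% for bound and 61.5% for unbound genes. Among members with a head-to-head neighbour the means were 66.5% for bound and 63.2% for unbound ones. Among all protein-coding genes with such a neighbour they were 64.7% and 62.8%. Of the members with a head-to-head gap of at least 200 bp, 18 were bound and 18 were not. At the midpoint of the gap, A+T content averaged 70.3% ± 11.1 (SD, n = 18) at bound members and 74.9% ± 9.50 (SD, n = 18) at members that were not bound. The order was the other way round over all genes with such gaps, at 72.6% for the 1240 bound genes and 69.4% for the 2306 unbound ones. The sequence at mRpL39 shown above is an example of an A+T-rich gap with no summit.

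Known promoter sequences were searched on both strands, in the 250 bases before to 50 after any TSS and in the 100 bp on either side of summits. The DNA replication-related element TATCGATA, bound by DREF, a regulator of genes for growth and DNA replication in flies, was present in the promoters of 16 of 73 members (21.9%), against 10.2% of all protein-coding genes. It was found at 6 of 24 bound members and 10 of 49 others. At the summits themselves it was present at 1 of 24, mRpS18B, against 4.77% of the summits near protein-coding start sites. The other 5 bound members with this sequence in the promoter did not hold it within 100 bp of the summit. They were mRpL17, mRpL19, mRpL20, mRpS23 and mRpS25. The summits of mRpS23 and mRpS25 lay 384 and 486 bp upstream, so their summit windows did not meet the promoter window. At mRpL17 and mRpL20, with summits at 230 and 272 bp, the windows met only in part. The count therefore cannot show where the sequence lies relative to the peaks. The GGTCACACT sequence of the factor M1BP was in the promoters of 8 members (11.0%), against 6.78% of all genes, and CGATA, which is contained in TATCGATA and is bound by BEAF-32, was in 60.3%, against 53.1%. The GAGAG sequence of GAGA factor was in 17.8% of member promoters, against 36.4% of all promoters. CACGTG was in 6.85%, against 5.34%. GCGCATGC, the core bound by ewg, was in the promoter of 1 member, mRpL21 (1.37%, against 1.46% of all genes). Genes with several TSSs offer more sequence to this count, and a match is not evidence of binding.

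By the IDR count within 500 bp, other genes of mitochondrial protein synthesis had summits at shares closer to the background than that of the members. Of 11 matched genes for mitochondrial translation factors and related proteins, 2 were bound, mEFTu1 (248) and mEFG1 (195), which code for elongation factors. Of 18 genes that charge mitochondrial transfer RNAs, 5 were bound (27.8%), with the highest signals at GatA (819), which codes for an amidotransferase subunit, CysRS-m (328) and ProRS-m (308). Of 17 genes for mitochondrial DNA and RNA synthesis and handling, 3 were bound. The strongest was PNPase, which codes for polynucleotide phosphorylase, with a signal of 5608 and rank 9, followed by mtSSB (734) and mTerf5 (376). The mitochondrial ribosomal protein genes tko and bonsai, whose symbols fall outside the naming rule, had no summit in any list. The intervals of these small lists are wide, from 2.28 to 51.8% for the 11 translation factor genes. As nearest gene, 18.2% of the translation factor, 11.1% of the charging and 17.6% of the DNA and RNA handling genes were bound. The share of members was 16.4%. In the list called on both replicates together the shares were 27.3%, 27.8% and 47.1%, against 42.5% of members and 36.3% of all protein-coding genes.

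The respiratory chain, which holds the products of mitochondrial translation, and the cytoplasmic ribosome were set beside the members. Of 90 nuclear genes of the respiratory chain and ATP synthase, 20 were bound (22.2%, interval 14.1 to 32.2%), with the highest signals at ND-ASHI (1344), ND-MWFE (912) and ND-51 (675), all genes of complex I. Their summits were shared in 75% of cases, against 47.3% for all bound protein-coding genes. The share of all protein-coding genes that were bound was 20.6%. Of 86 cytoplasmic ribosomal protein genes, 65 were bound (75.6%, interval 65.1 to 84.2%), an interval that does not overlap that of the members. Their strongest peaks, at RpL34b (1482), RpS27 (1286) and RpL7 (1178), lay below those of the 7 strongest members, and 3 of 65 were among the 500 strongest peaks. The median summit of the cytoplasmic ribosomal protein genes lay at -11 bp from the TSS, against -144 bp for the members. Their summits were shared in 47.7% of cases, against 91.7% for the members. As nearest gene, 15.6% of the respiratory chain and ATP synthase genes and 72.1% of the cytoplasmic ribosomal protein genes were bound. That share was 16.4% for the members and for all protein-coding genes.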

How the data were processed

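Peaks of CG15269-eGFP ChIP-seq were analysed in 2 biological replicates of 1 group of whole embryos. The authors deposited 4 narrowPeak lists, called on each replicate separately, on both replicates together, and thresholded by IDR. For every peak the authors deposited a signal, whose scale is not stated, and a −log10 q-value. All peaks of the IDR list had the same −log10 q of 4.20, and its 7029 peaks were the top 7029 of the joint list, so calls in the 2 lists are not independent. Per the labels, chromatin was sonicated to 200 to 800 bp and the assembly is dm6. Aligner, peak caller and the threshold for IDR are not given in the sources used, and control alignments named in the labels were not analysed here. The age used is that of the source name, since the age field holds another value. No read totals were among the files, so depth is unknown.

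A summit (peak start plus the deposited offset, 1-based) was assigned to every gene with a TSS within 500 bp, using the TSSs of Ensembl 115 and RefSeq sequence of genome release 6. The value of a gene is its highest-signal summit. The software was pandas 2.3.3, numpy 2.4.6, scipy 1.17.1 and matplotlib 3.10.9 under Python 3.11.15, and the assignment was tested on simulated summits. Shares have exact Clopper-Pearson 95% intervals. With 1 group there was no test. Named genes were all bound members with the genes that share their summits, the 5 strongest members below the IDR threshold and up to 3 strongest genes of each comparison list; a few others are named in counts. The members and lists were chosen with earlier results of these data known, and the split into proteins with a bacterial counterpart and mitochondria-specific ones was added after the peaks were seen. Of the listed names, 6 for translation factors, 5 for transfer RNA charging and 6 for DNA and RNA handling matched no gene symbol. The window, the peak list, the peak threshold and the replicates were varied.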

Additional observations from a re-analysis of the deposited data

How the results depend on the processing

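The count of 24 bound members fell to 15 with the 3514 strongest IDR peaks (20.5%, against 13.3% of all protein-coding genes). It fell to 13 when an IDR peak had to cover a TSS (17.8%, against 11.9%). The count as nearest gene, 12, was 6 when the peak had to cover a TSS (8.22%, against 10.2% of all genes). The count of shared summits, 22 of 24, was 10 of 19 within 200 bp (52.6%, against 35.2% of all bound genes). It was 13 of 15 with the 3514 strongest (86.7%, against 52.6%). When the peak had to cover a TSS, it was 10 of 13 (76.9%, against 33.6%). Without 1 replicate, the strongest peaks of the remaining list were used, as many as the IDR list holds. With replicate 2 alone, 23 members were bound (31.5%, against 20.8% of all genes) and 13 as nearest gene (17.8%, against 16.7%). With replicate 3 alone, the counts were 25 (34.2%, against 21.8%) and 11 (15.1%, against 16.8%). Shared summits numbered 21 of 23 with replicate 2 alone (91.3%, against 45.5% of all bound genes). With replicate 3 alone they numbered 23 of 25 (92.0%, against 51.3%). Members in both replicate lists numbered 20 to 30, given here without the share of all genes. The median signal of 409 was 911 for the 3514 strongest, and 188 to 228 in the single-replicate lists, whose signals are lower for all genes. Bound small subunit genes numbered 6 rather than 13 when the peak had to cover a TSS, beside 7 rather than 11 large subunit genes. A+T content was 74.6% for the 3514 strongest, 69.2% in windows of 100 bp on either side and 70.4 to 71.9% in the single-replicate lists, against 72.6% as reported. The median summit position was -131 bp without replicate 3 and -167 bp without replicate 2, and 15 to 17 members had the DREF sequence in the other promoter windows. The causes of these differences were not tested. No paired analysis was possible because the series holds 1 group. The unknown depth means that genes without a summit cannot be called unbound below the limit of the lists.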
